A study of Mus musculus with 6 samples.

Results

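The Id proteins and the transforming growth factor beta (TGF-beta) pathway were followed through 10 genes in mouse bone marrow-derived macrophages: *Id1*, *Id2*, *Id3*, *Tgfb1*, *Tgfbr1*, *Tgfbr2*, *Tgfbi*, *Smad3*, *Smad7* and *Skil*. The genes were picked by symbol from the 24972 rows of the table of normalized read counts. All 10 were present and all 10 passed the filter on low values, as did 12091 genes in all. The cells were bone marrow monocytes differentiated in medium containing what L929 fibroblasts secrete, which includes macrophage colony-stimulating factor, and were left untreated. One group came from wild-type mice (WT, 3 libraries) and the other from *Lcn10* knockout mice (Lcn10-KO, 3 libraries), while the sources used here name no strain, age or design of the knockout allele. Nothing in the labels ties each replicate to its own mouse, and the p-values therefore cover only library-to-library spread, possibly technical.

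TGF-beta is a secreted dimer that is held latent until activated. It binds the receptor kinase encoded by *Tgfbr2*, which recruits and activates the receptor kinase encoded by *Tgfbr1*. The active receptor phosphorylates Smad2 and Smad3, which join Smad4 and enter the nucleus. Smad7 blocks the receptor, and SnoN, the product of *Skil*, represses Smad complexes on DNA; both genes are textbook targets of the pathway that they restrain. The related bone morphogenetic proteins (BMPs) signal through Smad1 and Smad5 and are known inducers of the Id genes. Id proteins carry a helix-loop-helix without a DNA-binding region, so they pair with E proteins and keep these off DNA. In macrophages TGF-beta is known for shaping tissue-resident programmes, and *Id3* for the identity of liver macrophages.

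Smad complexes with Smad3 or Smad4 bind the letters CAGAC, and Smads of both branches also bind GC-rich letters such as GGCGCC. Both were searched in the 250 bases upstream of RefSeq's starts, CAGAC also as its reverse complement GTCTG, while GGCGCC reads the same on both strands. Sequences were matched for 7 of the 10 genes, with 8 promoters in all; *Id1*, *Skil* and *Smad7* were not matched. CAGAC was in 4 of the 8 promoters and in 42.2% of all 32851 promoters, and GGCGCC in 3 of the 8 and in 9.59% of all. The stretches below show the matches of *Id3* and *Tgfbi*, which were lower in Lcn10-KO, beside those of *Id2* and *Tgfbr2*, which were not past the threshold. Each runs 5′ to 3′ on the gene's strand with the match in capitals, and the name gives how many bases before the start the match begins.
Id3 at 167 (chr4:136143645-136143669, plus strand): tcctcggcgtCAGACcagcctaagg
Id3 at 68 (chr4:136143744-136143768, plus strand): acccttggcgGTCTGttttgaataa
Tgfbi at 239 (chr13:56609337-56609361, plus strand): gcttcctgcaGTCTGctagagagct
Tgfbi at 85 (chr13:56609491-56609515, plus strand): tagtggcgtgGTCTGggaggcgccg
Tgfbi at 77 (chr13:56609499-56609524, plus strand): tggtctgggaGGCGCCggctgccctt
Id2 at 231 (chr12:25096308-25096333, minus strand): aggccccctgGGCGCCcagcgcacac
Tgfbr2 at 160 (chr9:116175509-116175533, minus strand): acttggagccCAGACttggcggggt
The matches of *Id3* lie upstream of RefSeq's start but inside the longer first exon that GENCODE gives the gene. The *Id2* match and the CAGAC match of *Tgfbr1* likewise lie within the spans that GENCODE gives those genes. The *Tgfbi* matches at 85 and 77 bases sit 3 bases apart. Of the 2 *Tgfbr1* promoters, 1 held CAGAC and the other GGCGCC, and the promoters of *Smad3* and *Tgfb1* held neither. The letters are a description of these windows and not evidence of binding.

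Between the genotypes, 4 of the 10 genes fell in Lcn10-KO (*Id3*, *Skil*, *Smad7* and *Tgfbi*), 1 rose (*Smad3*) and 5 did not pass the threshold (*Id1*, *Id2*, *Tgfb1*, *Tgfbr1* and *Tgfbr2*). The test was limma with a Benjamini-Hochberg adjusted p under 0.05, which called 9.84% of all genes tested (5.14% lower and 4.7% higher in Lcn10-KO). The genotypes did not overlap for 7 of the 10 genes, against 32.4% of all genes tested. Of these 7, 6 were lower in Lcn10-KO (16.9% of all genes) and 1 was higher (15.5%). The median log2 fold change of the 10 was −0.43, against −0.0011 over all genes tested. Because the 10 genes were chosen with earlier results of these data known, these shares and medians are a description only. The number called fell from 5 to 0 in limma without the mean-variance trend. There 6 of the 10 had an unadjusted p under 0.05, beside 2713 of all 12091 genes tested. It was 1 without Lcn10-KO replicate 1, 2 or 3 and 2 without WT replicate 3. In bulk RNA, fewer cells of a type and less RNA per cell cannot be told apart.

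**Figure D1:**
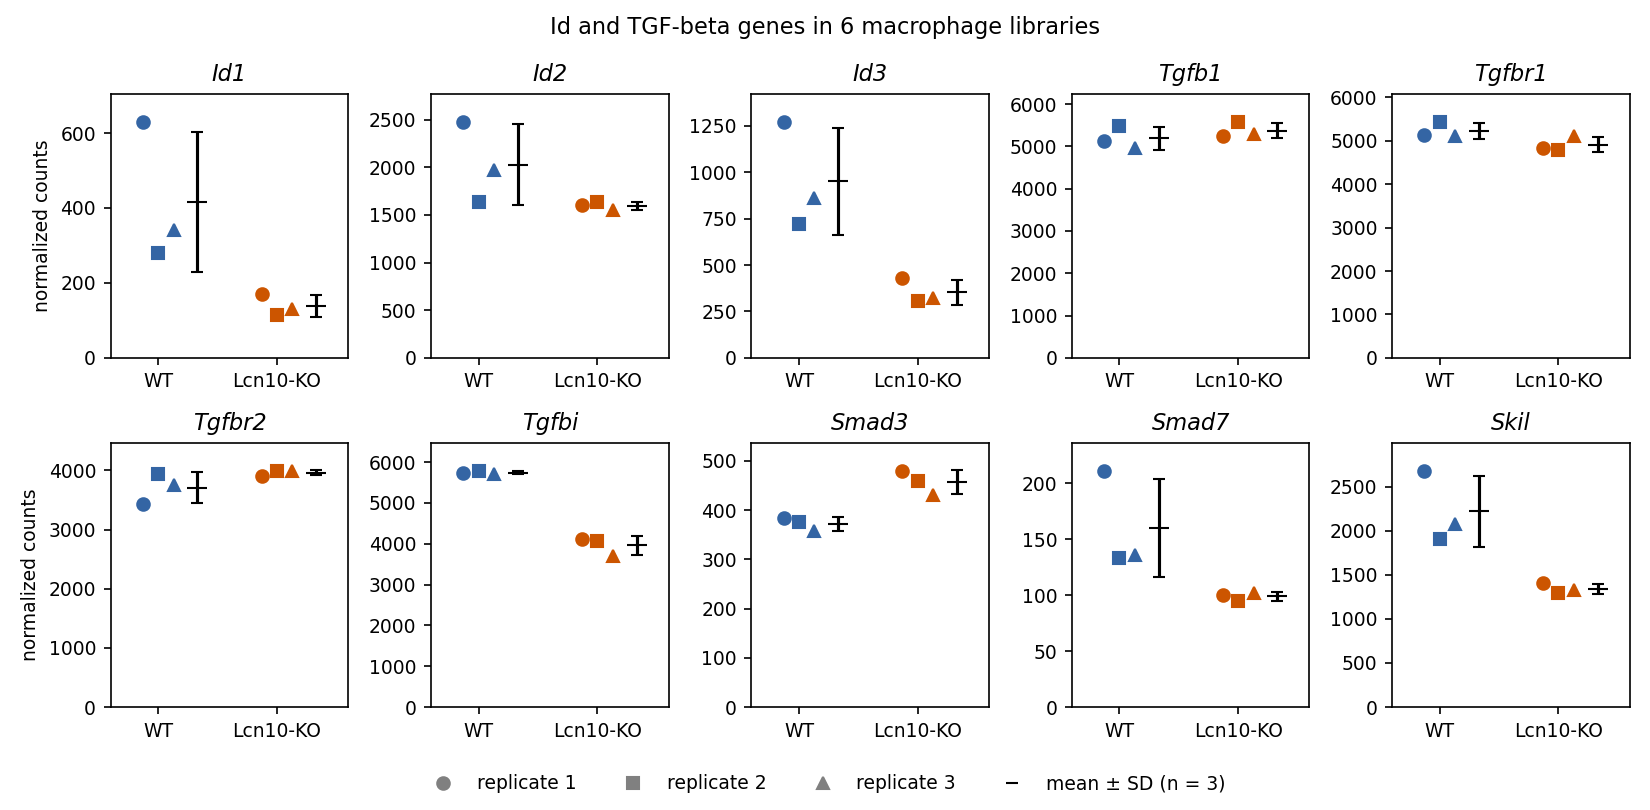
Normalized counts of the 10 genes (y axis, from 0) in each of the 3 WT (blue) and 3 Lcn10-KO (orange) libraries, with marker shapes for replicates and black bars for mean ± SD. For *Id1*, *Id3*, *Skil*, *Smad7* and *Tgfbi* all Lcn10-KO points lie below all WT points, and for *Smad3* all lie above. The Lcn10-KO points of *Id2* also lie below its WT points, but by almost nothing.

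Dividing each library's summed values by its commonest single-read value gave a rough estimate of 18000000 to 24800000 reads counted in genes. *Lcn10* was listed at 0 in all 6 libraries, so it could not check the genotype labels. The 10 macrophage markers looked at, among them *Csf1r*, *Adgre1* and *Lyz2*, were all present. They summed to 296854 to 306307 normalized counts in WT and 316199 to 327733 in Lcn10-KO. Most of that was *Lyz2*, with means of 174440 in WT and 187157 in Lcn10-KO. Of the 10 markers, 2 were called higher and 2 lower, beside 9.84% of all genes tested called in either direction. Fibroblast and stromal markers (9 of 10 reaching a value of 10) summed to 3192 to 4914 in WT and 4178 to 4701 in Lcn10-KO, with 0 of 9 tested genes called. Megakaryocyte and platelet markers summed to 2576 to 3528 and 2903 to 3026, nearly all of it *Pf4*, and neutrophil markers to 337 to 465 and 408 to 449.5, with *Ly6g* at 0 throughout. Dendritic cell, lymphocyte and erythroid marker sums did not exceed 46.1 in any library.

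Among the Id genes, *Id3* fell to 0.371 times its WT mean. *Id3* (ENSMUSG00000007872.3, chromosome 4, 136143497 to 136145755, plus strand, GRCm38) lay at 1272, 719.7 and 860.0 normalized counts in WT replicates 1 to 3 and at 429, 305 and 323 in Lcn10-KO replicates 1 to 3. The lowest WT library stood above the highest Lcn10-KO library, and WT replicate 1 was the highest of all. The means were 950.4 ± 287 and 353 ± 67.2 (SD, n = 3 each), and the log2 fold change was −1.40 ± 0.26 (SE, limma adjusted p = 0.0393). The call was lost without WT replicate 3 (adjusted p = 0.0846), without Lcn10-KO replicate 1, 2 or 3 (0.0587, 0.129 and 0.113) and with no filter on low values (0.0637). The log2 fold change lay between −1.58 and −1.17 in the 6 leave-outs.

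*Id1* (ENSMUSG00000042745.9, chromosome 2, 152736251 to 152737410, plus strand), like *Id3* a known early response gene of BMP signalling, lay at 630.0, 279 and 342 normalized counts in WT and at 171, 113 and 131 in Lcn10-KO. The groups did not overlap, yet the WT libraries themselves differed by more than the distance from the lowest of them to the highest Lcn10-KO library. The log2 fold change was −1.51 ± 0.35 (SE), the widest error among the 10 genes, with a 95% confidence interval of −2.41 to −0.61, and did not pass the threshold (limma adjusted p = 0.0616). WT replicate 1 held 2.03 times the mean of the other WT libraries. Without it the log2 fold change was −1.17 and passed the threshold (adjusted p = 0.000746). It also passed without WT replicate 2 (0.0374), in limma without robust estimation (0.00801) and with a replicate block (4.17e-06).

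*Id2* (ENSMUSG00000020644.9, chromosome 12, 25093799 to 25097140, minus strand), known for its part in dendritic and innate lymphoid cell development, lay at 2478, 1636 and 1969.7 in WT and at 1609, 1633 and 1553 in Lcn10-KO. WT replicate 2 and Lcn10-KO replicate 2 were nearly equal, so the groups were separated by almost nothing. The log2 fold change of −0.32 ± 0.15 (SE) did not pass (adjusted p = 0.259), and its 95% confidence interval ran from −0.71 to 0.06. Without WT replicate 1 the log2 fold change was −0.17 (adjusted p = 0.141), and without WT replicate 2 it was −0.47 and passed (0.0121). *Id4*, the remaining Id gene, stayed under the filter, with means of 6.06 ± 2.47 in WT and 3.15 ± 1.03 in Lcn10-KO.

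The partners of the Id proteins were measured in the same libraries. The E protein genes *Tcf3*, *Tcf4* and *Tcf12* had log2 fold changes of −0.06 ± 0.05, 0.06 ± 0.05 and 0.15 ± 0.05 (SE) and did not pass (adjusted p = 0.471, 0.554 and 0.0840). Of the other helix-loop-helix genes, *Lyl1*, a partner of E proteins in blood progenitors, rose from 987 ± 114 to 1284 ± 24.9 normalized counts (0.39 ± 0.08 on the log2 scale, adjusted p = 0.0125), and *Tal1* did not pass (−0.15 ± 0.07, adjusted p = 0.174). *Lyl1* lost its call without Lcn10-KO replicate 2 or 3 (adjusted p = 0.0714 and 0.0700) and without the trend (0.120). It overlaps *Nfix* on the opposite strand, and without known strand use their reads cannot be told apart. In all, 1 of 5 tested genes of this list was called, with a median log2 fold change of 0.06.

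**Figure D2:**
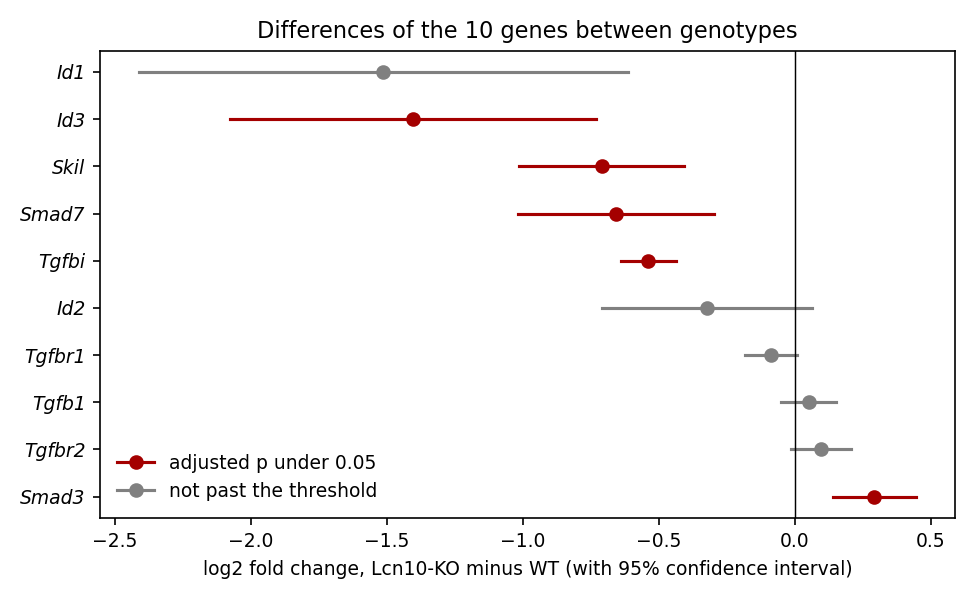
Log2 fold change of each gene, Lcn10-KO minus WT, with its 95% confidence interval from limma; red marks an adjusted p under 0.05. *Id1* and *Id3* have the lowest estimates (−1.51 and −1.40) and the widest intervals, while *Tgfbi* has a narrow interval below 0 and only *Smad3* has an interval wholly above 0.

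The ligand and its receptors did not pass the test, and their intervals were narrow. *Tgfb1* (ENSMUSG00000002603.15, chromosome 7, 25687002 to 25705077, plus strand), the main TGF-beta of blood cells, lay at 5132, 5478 and 4951 normalized counts in WT and at 5255, 5581 and 5285 in Lcn10-KO, with the groups interleaved. Its log2 fold change was 0.05 ± 0.05 (SE, limma adjusted p = 0.538), with a 95% confidence interval of −0.05 to 0.15.

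*Tgfbr1* (ENSMUSG00000007613.15, chromosome 4, 47353222 to 47414931, plus strand) lay at 5126, 5435 and 5101 in WT and at 4837, 4786 and 5105 in Lcn10-KO. Lcn10-KO replicate 3 reached the level of the WT libraries, and the log2 fold change was −0.09 ± 0.04 (adjusted p = 0.224, 95% confidence interval −0.18 to 0.01). *Tgfbr2* (ENSMUSG00000032440.13, chromosome 9, 116084293 to 116175360, minus strand) lay at 3442, 3947 and 3747 in WT and at 3915, 3987 and 3991 in Lcn10-KO. WT replicate 1 was the lowest library, and the log2 fold change was 0.10 ± 0.05 (adjusted p = 0.243, 95% confidence interval −0.01 to 0.21). None of these 3 genes passed in any of the 15 alternatives tried.

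*Smad3* was the 1 gene of the 10 that rose. *Smad3* (ENSMUSG00000032402.12, chromosome 9, 63646767 to 63757994, minus strand), which carries the signal from the TGF-beta receptor to DNA, lay at 385, 376 and 357 normalized counts in WT and at 479, 459.6 and 431 in Lcn10-KO. All Lcn10-KO libraries were above all WT libraries, with little spread in either group. The means were 372 ± 14.4 and 457 ± 24.4 (SD, n = 3 each), a ratio of 1.23, and the log2 fold change was 0.29 ± 0.07 (SE, limma adjusted p = 0.0244). The call was lost without WT replicate 3 (adjusted p = 0.0689) and without Lcn10-KO replicate 1, 2 or 3 (0.0969, 0.111 and 0.0611), at log2 fold changes of 0.26 to 0.33.

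Both restraints on the pathway fell. *Smad7* (ENSMUSG00000025880.11, chromosome 18, 75367529 to 75395935, plus strand), the inhibitor of the receptor, lay at 211, 133 and 136 normalized counts in WT and at 100.4, 94.6 and 102 in Lcn10-KO. The Lcn10-KO libraries were close to each other, while WT replicate 1 was 1.57 times the mean of the other WT libraries. The log2 fold change was −0.66 ± 0.17 (SE, limma adjusted p = 0.0304). Without WT replicate 1 it was −0.44 (adjusted p = 0.0449), and without Lcn10-KO replicate 1, 2 or 3 the call was lost (0.0865, 0.128 and 0.106).

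*Skil* (ENSMUSG00000027660.16, chromosome 3, 31095058 to 31122577, plus strand) lay at 2677, 1907 and 2072 in WT and at 1404, 1289 and 1333 in Lcn10-KO. The lowest WT library was above the highest Lcn10-KO library, and the means of 2219 ± 405 and 1342 ± 57.9 (SD, n = 3 each) gave a ratio of 0.605. The log2 fold change was −0.71 ± 0.13 (SE, limma adjusted p = 0.0238), and without WT replicate 1, again the highest, −0.57 (adjusted p = 1.10e-06). The call was lost without WT replicate 3 (0.0504) and without Lcn10-KO replicate 1, 2 or 3 (0.0572, 0.0968 and 0.0889).

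*Tgfbi* (ENSMUSG00000035493.10, chromosome 13, 56609523 to 56639562, plus strand), a secreted matrix protein that binds integrins and is named for its induction by TGF-beta, had the least error relative to its change. It lay at 5736, 5782 and 5713 normalized counts in WT and at 4116, 4074 and 3691 in Lcn10-KO. The WT libraries were nearly equal, and every Lcn10-KO library was well below them. The means were 5744 ± 35.1 and 3960.4 ± 234 (SD, n = 3 each), a ratio of 0.690, and the log2 fold change was −0.54 ± 0.05 (SE, limma adjusted p = 5.67e-05). Its p-value was the 10th smallest of the 12091 genes tested. The call held in each of the 6 leave-outs and was lost in limma without the trend, where the adjusted p was 0.0515.

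**Figure D3:**
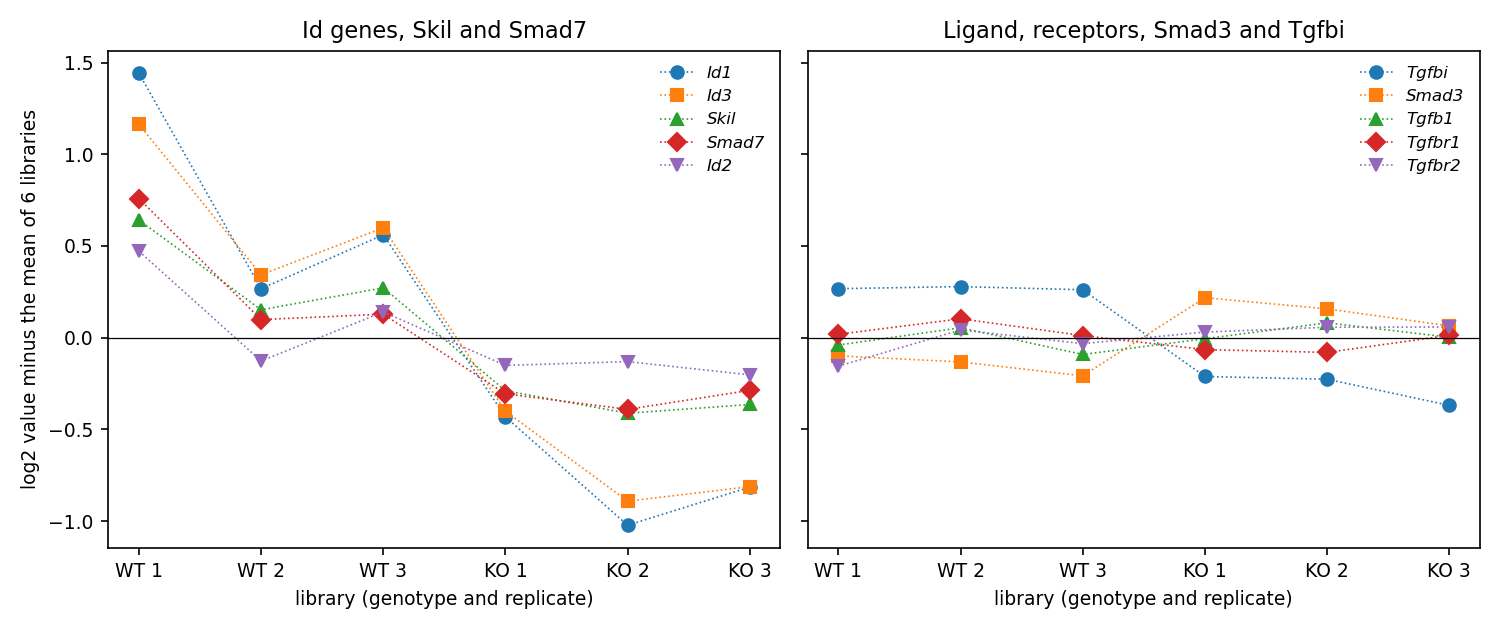
Log2(value + 1) of each gene minus its mean over the 6 libraries (y axis), for WT replicates 1 to 3 and Lcn10-KO replicates 1 to 3 (x axis); dotted lines only join the points of a gene. In the left panel WT replicate 1 is the highest point of *Id1*, *Id2*, *Id3*, *Skil* and *Smad7*, and in the right panel the points of *Tgfb1*, *Tgfbr1* and *Tgfbr2* stay close to 0.

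WT replicate 1 was the highest of the 6 libraries for 5 of the 10 genes (*Id1*, *Id2*, *Id3*, *Smad7* and *Skil*), for 31 of the 68 tested genes of the wider pathway and for 29.1% of all genes tested. Against the mean of WT replicates 2 and 3, WT replicate 1 held 2.03 times as much *Id1*, 1.61 times as much *Id3*, 1.57 times as much *Smad7*, 1.37 times as much *Id2* and 1.35 times as much *Skil*, but 0.998 times as much *Tgfbi* and 1.05 times as much *Smad3*. The stromal marker sum was also highest in WT replicate 1, at 4914 normalized counts against 3192 and 4259 in WT replicates 2 and 3. The Lcn10-KO sums, 4701, 4325 and 4178, lay within the WT range. Endothelial markers, from a cell type rich in Id genes, summed to 1603, 1473 and 1397 in WT and to 1495, 2121 and 1778 in Lcn10-KO. Most of that sum was *Vwf*, which rose (adjusted p = 0.0424) and was 1 of 8 tested endothelial markers called. The defining endothelial markers *Pecam1* and *Cdh5* were not called and were highest in Lcn10-KO replicate 2, at 161 and 165, and none of the 10 was at 0 throughout. The endothelial sum was highest in Lcn10-KO replicate 2, where *Id1* and *Id3* were lowest. The stromal sum was highest in WT replicate 1, where *Id1* and *Id3* were highest. The part of these cell types in the differences was not tested. Set against WT replicates 2 and 3 alone, the Lcn10-KO mean was 0.447 times as high for *Id1*, 0.446 for *Id3*, 0.675 for *Skil*, 0.735 for *Smad7*, 0.689 for *Tgfbi* and 0.886 for *Id2*.

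Levels were compared between genes per kilobase of exonic length in GENCODE. GENCODE gives *Id3* a longer first exon than RefSeq does, so the place of *Id3* in the order may depend on that choice of length. In WT, *Tgfb1* was the highest at 2385 ± 123 normalized counts per kilobase (SD, n = 3), followed by *Tgfbi* at 2116 ± 12.9. Next came *Id2* (832 ± 174), *Tgfbr1* (814 ± 29.0) and *Id3* (744 ± 224), which did not differ beyond their spread. *Tgfbr2* stood at 453 ± 31.1 per kilobase, *Id1* at 359 ± 161 and *Skil* at 330.1 ± 60.3, again within the spread of *Id1*. *Smad3* (73.2 ± 2.82) and *Smad7* (36.6 ± 10.1) were the lowest. In Lcn10-KO the order of levels was *Tgfb1* (2471), *Tgfbi* (1459), *Tgfbr1* (765), *Id2* (656), *Tgfbr2* (484), *Id3* (276), *Skil* (199.7), *Id1* (119), *Smad3* (89.7) and *Smad7* (22.6). *Id3* thus stood above *Tgfbr2* in WT and below it in Lcn10-KO.

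The wider pathway was read from 7 lists that hold 85 genes, of which 68 passed the filter on low values. Of these, 5 fell, 2 rose and 61 did not pass, with a median log2 fold change of −0.08. The called share is close to that of all genes tested, given above. The count was 1 in limma without the trend, 12 with a replicate block, 15 without WT replicate 2 and 3 without Lcn10-KO replicate 2 or 3.

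Of 9 tested ligands of the family, 1 was called. *Gdf3*, which in fat tissue macrophages is known as a ligand of activin-type receptors, lay at 1428, 1406 and 1298 normalized counts in WT and at 677, 772 and 799 in Lcn10-KO. Its lowest WT library was well above its highest Lcn10-KO library (log2 fold change −0.88 ± 0.07 (SE), limma adjusted p = 1.79e-05), and it was the only gene of the wider pathway still called without the trend (0.0435). *Bmp2*, an inducer of Id genes, lay at 58.1, 170.4 and 123 in WT and at 219, 182 and 225 in Lcn10-KO. The *Bmp2* groups did not overlap but its error was wide (log2 fold change 0.95 ± 0.42, adjusted p = 0.230). Without WT replicate 1, its lowest library, *Bmp2* passed at 0.52 on the log2 scale (adjusted p = 0.0247), and in the other alternatives its adjusted p reached 0.387. *Gdf15*, a stress-induced ligand, differed by 0.43 ± 0.20 on the log2 scale (adjusted p = 0.197) and passed without WT replicate 1 (0.64, adjusted p = 0.00913), while without WT replicate 2 it was 0.22 (0.370). *Bmp4* and *Bmp6* stayed under the filter, with means of 0.378 and 0.753 in WT and 0.629 and 2.05 in Lcn10-KO.

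Of 8 tested genes of latency and activation, 1 was called. *Itgav*, the integrin alpha V chain through which cells release TGF-beta from its latent form, lay at 7766, 7432 and 6936 normalized counts in WT and at 5344, 4521 and 4866 in Lcn10-KO. The groups were far apart (log2 fold change −0.59 ± 0.06 (SE), limma adjusted p = 0.000766), and the call held in every leave-out but not without the trend (0.0771). *Itgb8*, a beta chain that pairs with it in TGF-beta activation, stayed under the filter in both genotypes. *Nrros*, which anchors latent TGF-beta on myeloid cells, did not pass (0.09 ± 0.05, adjusted p = 0.241).

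Of 11 tested receptors and coreceptors, 1 rose and 1 fell. *Eng*, which codes for the coreceptor endoglin, rose from 855 ± 46.4 to 1009 ± 42.1 normalized counts (SD, n = 3 each; log2 fold change 0.24 ± 0.06 (SE), limma adjusted p = 0.0246). *Eng* lost its call without WT replicate 3 (0.0650), without Lcn10-KO replicate 1, 2 or 3 (0.0555, 0.133 and 0.0790) and without the trend (0.124). It overlaps *Fpgs* on the opposite strand. Because endoglin is abundant in endothelial cells, the endothelial sums given above stand beside it, and their part was not tested. *Nrp1*, a coreceptor for several growth factors, fell by 0.18 ± 0.04 on the log2 scale (adjusted p = 0.0131), a call lost without Lcn10-KO replicate 2 or 3 (0.0744 and 0.0673) and without the trend. The receptors of the BMP branch did not pass. The log2 fold change was −0.22 ± 0.08 for *Acvr1* (adjusted p = 0.1002), −0.28 ± 0.17 for *Bmpr1a*, −0.0056 ± 0.057 for *Bmpr2* and 0.04 ± 0.07 for *Acvrl1*, and adding a replicate block brought *Acvr1* past the threshold (0.0392), while without Lcn10-KO replicate 2 its adjusted p was 0.326.

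None of the 5 other tested Smad genes passed in limma. Of them 1, *Smad6*, had an unadjusted p under 0.05, as did 3180 of all 12091 genes tested. *Smad6*, the inhibitory Smad of the BMP branch, lay at 270.1, 114 and 126 normalized counts in WT and at 79.4, 74.3 and 72.6 in Lcn10-KO. As with *Id1*, the groups did not overlap and WT replicate 1 stood far above the rest (log2 fold change −1.05 ± 0.31 (SE), adjusted p = 0.0837). Without WT replicate 1 the log2 fold change was −0.66 and passed (0.00815), as it did without WT replicate 2 (0.0341), with a replicate block (0.0138) and without robust estimation (0.0346). The signalling Smads stayed near 0, at −0.0059 ± 0.070 for *Smad1*, −0.03 ± 0.05 for *Smad2*, 0.03 ± 0.05 for *Smad4* and −0.10 ± 0.06 for *Smad5*. The signs of *Smad1*, *Smad2* and *Smad4* turned in some alternatives.

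Of 16 tested genes in the list of corepressors, inhibitors and other regulators, which leaves out *Skil* and *Smad7*, none passed in limma. An unadjusted p under 0.05 was seen for 3 of them (*Smurf2*, *Usp15* and *Zfyve9*), beside 3180 of the 12091 genes tested, so the count does not set this list apart. *Usp15* and *Zfyve9* are not restraints on the pathway, so their values are not to be read beside those of *Skil* and *Smad7*. *Ski*, the closest relative of *Skil*, differed by −0.07 ± 0.04 on the log2 scale (adjusted p = 0.347), *Tgif1* by −0.04 ± 0.05 (0.711) and *Pmepa1* by −0.68 ± 0.38 (0.326). *Pmepa1* rested on single WT libraries: it was −0.30 without WT replicate 1 (adjusted p = 0.505) and −1.06 without WT replicate 2 (0.0211), and it also passed with a replicate block (0.0326).

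Of 15 tested genes known as Smad targets in other cells, 2 fell and 13 did not pass, with a median log2 fold change of −0.27. *Cx3cr1*, the fractalkine receptor that TGF-beta raises in microglia, lay at 1746, 1912 and 1881 normalized counts in WT and at 1295, 1112 and 1096 in Lcn10-KO, and its gene model overlaps 9 others. Every Lcn10-KO library was below every WT library (log2 fold change −0.66 ± 0.07 (SE), limma adjusted p = 0.000222), and the call held in every leave-out but not without the trend (0.0670). *Cdkn1a*, an inhibitor of the cell cycle, fell by 0.31 ± 0.07 on the log2 scale (adjusted p = 0.0319) and lost its call without WT replicate 3 (0.0876), without Lcn10-KO replicate 1, 2 or 3 (0.0890, 0.0901 and 0.123) and without the trend (0.145).

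**Figure D4:**
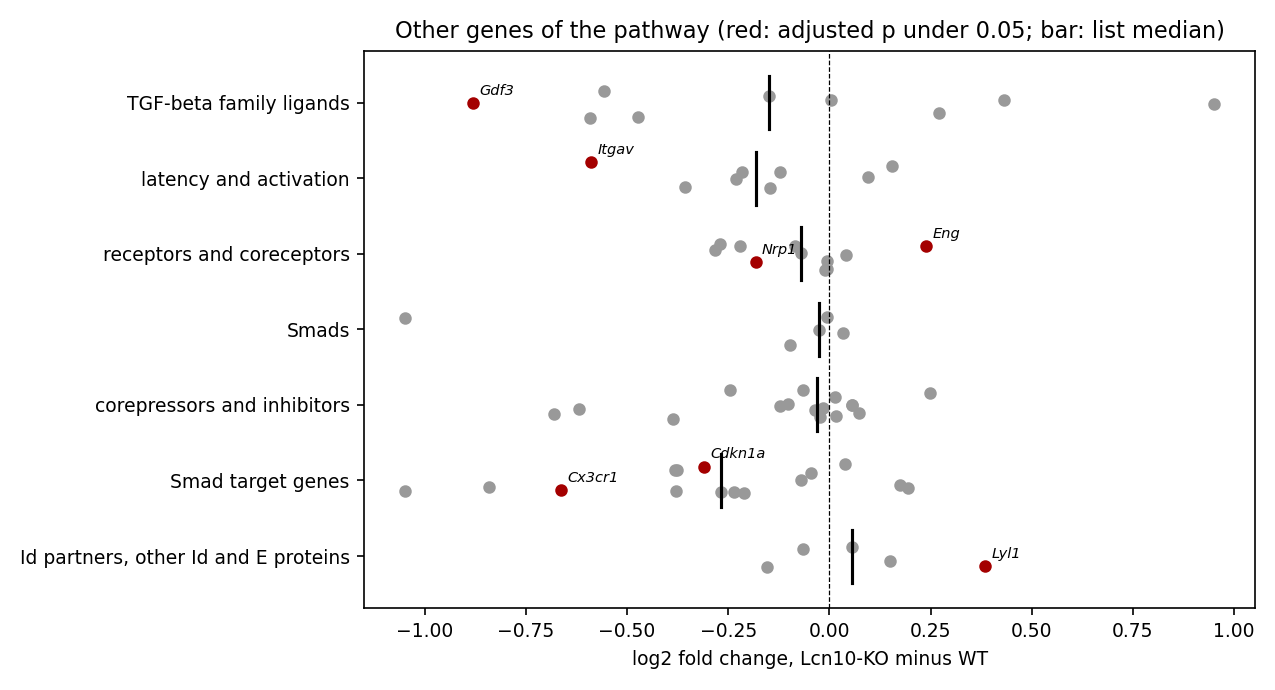
Log2 fold changes, Lcn10-KO minus WT (x axis), of the 68 tested genes of the wider pathway by list (y axis, *Smad6* in both the Smads and the Smad target genes; vertical spread within a list is for visibility); red marks an adjusted p under 0.05 and bars mark list medians. The 7 called genes are spread over 5 lists, and the medians lie between −0.27 and 0.06.

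The genes whose pattern over the 6 libraries was most like that of *Id3* were sought among 10549 genes with a mean of at least 50, by the root-mean-square distance between log2 values centred on each gene's mean. The nearest was *Dmpk*, a serine/threonine kinase gene, at a distance of 0.07, followed by its neighbour on chromosome 7, *Dmwd* (0.20), then *Tmem26* (0.21), *Bdh2* (0.24) and *Smad6* (0.27). *Dmpk* lay at 1734, 1164 and 1283 normalized counts in WT and at 639, 446 and 493 in Lcn10-KO, the same order of libraries as *Id3* within each genotype. For *Tgfbr1* the nearest were *Sp1*, *Rps6ka3*, *Ptbp3*, *Pafah1b1* and *Usp45*, at distances of 0.014 to 0.016. The distances use the difference between genotypes, so the calls of these genes follow from the choice, and the distances are a description only.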

How the data were processed

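RNA of 6 untreated macrophage cultures was measured. The submitters' processing notes list bcl2fastq, STAR 2.6.1a, Salmon 0.11.2, DESeq2 and the mm10 build, with no role or order, and neither annotation nor strand setting is named there. Deposited was a scaled signal per gene, which the authors derived from read counts. Its values are fractional, and between 86.3% and 90.3% of the values under 20 were multiples of the commonest single-read value within 0.1 reads, so no count test was run.

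Columns were matched to samples by library name. Genes reaching 10 in 3 or more libraries were tested on log2(value + 1) with limma 3.58.1 in R 4.3.3 (genotype as the only term, mean-variance trend, robust estimation), with Benjamini-Hochberg adjustment over all 12091 genes and a threshold of 0.05. The procedure was also run on simulated counts with the same setting of spread for all genes and both genotypes. That spread was narrower than the WT spread of *Id1* or *Id3*, so the run does not bear on their results. The 10 genes and all lists were chosen with earlier results of these data known. Named were the 10 genes, every pathway gene past the threshold, a list of further pathway genes (1 of them not reported here) and the 5 genes nearest in pattern to *Id3* and to *Tgfbr1*; others were chosen after their values were seen. *Ccn1* and *Ccn2* were read under their older symbols. Positions and exonic lengths came from GENCODE M21 on GRCm38, and promoter sequences from RefSeq on GRCm38.p6. Alternatives were other normalizations, filters, pseudocounts and variance models, a replicate block and leaving out each library. Figures were drawn with matplotlib 3.10.9.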

Additional observations from a re-analysis of the deposited data

How the results depend on the processing

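Over 15 alternatives, the 10 genes kept their direction in all 150 results. Their side of the threshold was kept in 124, lost in 21 and gained in 5. Limma without the trend called 14 genes in place of 1190 (2713 at an unadjusted p under 0.05), 0 of the 10 and 1 gene of the wider pathway in place of 7. Leaving out each library in turn gave 175 to 1664 genes in all, 1 to 7 of the 10 and 3 to 15 of the wider pathway. Few libraries (3 per genotype) limit these calls. Replicate numbers were not taken to pair the libraries (correlations of same-numbered deviations of 0.038, 0.073 and 0.014 across genes, none over 0.1). Of the 6 libraries, 5 correlated best with their own number. The deviations were centred within each genotype, so these correlations are not independent and cannot decide whether libraries were paired. With the replicate block 1607 genes, 6 of the 10 (*Id1* added) and 12 of the wider pathway were called. The 25 named genes of the wider pathway kept direction and side in 335 of 375 results. The sign turned, never with a call, for *Smad1* (0.012 under quantile normalization, −0.066 to 0.048 over leave-outs), *Bmpr2* (0.0098 and −0.057 to 0.051), *Smad2* (−0.054 to 0.0070 over leave-outs), *Smad4* (−0.0092 to 0.056) and *Acvrl1* (−0.0088 to 0.090). The cause was not tested. No count test was run, since whole reads were not recovered.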

Other observations

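Ratios of genes within a library were looked at for 4 pairs chosen after their values were seen. A factor shared by all genes of a library cancels in such a ratio, but scaling that differs by gene does not. In WT replicate 1 the commonest single-read value was 1.137, while *Nog* stood at 1.131 and *Bmpr1b* at 1.163, so the scaling may differ by gene. The ratio of *Id3* to *Id2* was 0.513, 0.440 and 0.437 in WT replicates 1 to 3 and 0.267, 0.187 and 0.208 in Lcn10-KO replicates 1 to 3. The ratio of *Id1* to *Id2* was 0.254, 0.170 and 0.174 in WT and 0.106, 0.0694 and 0.0844 in Lcn10-KO. *Smad7* to *Smad3*, the inhibitor to the transducer, stood at 0.548, 0.354 and 0.381 in WT and at 0.209, 0.206 and 0.236 in Lcn10-KO. *Tgfbr1* to *Tgfbr2* stood at 1.49, 1.38 and 1.36 in WT and at 1.24, 1.20 and 1.28 in Lcn10-KO. In all 4 ratios every WT library was above every Lcn10-KO library. The exact two-sided permutation test on the log2 ratio gave p = 0.1 for each, the smallest value that 3 against 3 libraries allow, so no adjusted value can pass 0.05. Because the pairs were picked with their values known, the separation and these p-values are a description only.

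*Dmpk* (chromosome 7, 19083849 to 19093821) and *Dmwd* (19076227 to 19082776), the genes nearest to *Id3* in pattern, lie on the same strand of GRCm38 next to each other, *Dmwd* ending before *Dmpk* begins. Their log2 fold changes were −1.40 ± 0.21 and −1.08 ± 0.21 (SE), which follow from the choice of genes like *Id3*.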
